A study of Mus musculus with 6 samples.

Results

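A set of 10 enzymes and partners that write or erase DNA methylation or Polycomb marks was followed in cultured mouse embryonic fibroblasts: Dnmt1, Uhrf1, Dnmt3a, Dnmt3b, Tet1, Tet2, Tet3, Ezh1, Ezh2 and Suz12. They were chosen by name, with earlier results of these data known, and make up 10 of the 19856 genes measured. All 10 had at least 1 probe set that carries their symbol alone, and of several such probe sets the brightest on average was used. The samples were 3 of a tetraploid line, labelled as having abnormal DNA content and called transformed in the series title, and 3 of a diploid line that served as the normal control. Both lines were embryonic fibroblasts grown in the same serum medium to near confluence. Strain, embryonic age, sex and the way the tetraploid line arose are not given in the sources used here. With 1 line per ploidy, effects of ploidy, of transformation and of the line itself cannot be told apart. Whether the 3 samples of each line came from separate cultures is not labelled, so p-values measure only the spread between these samples, which may be technical.

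Cytosine methylation at CpG sites is copied to the new strand at each DNA replication by DNMT1, which UHRF1 guides to half-methylated sites. DNMT3A and DNMT3B set new methyl groups, and the TET dioxygenases oxidise them, the first step of their removal. Polycomb repressive complex 2 (PRC2) methylates histone H3 at silenced developmental genes. EZH2 or EZH1 is its catalytic subunit, SUZ12 and EED are its core partners, and EZH2 is the form typical of dividing cells. Transcripts of Dnmt1, Uhrf1 and Ezh2 are known to be made mainly in cycling cells, under control of E2F factors.

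Levels are deposited log2 array values. On each array the background level was set at the 95th percentile of 1027 olfactory receptor genes, which are little transcribed outside sensory neurons, and it lay between 7.01 and 7.41. Between 10212 and 11300 genes per array exceeded it. Of 10 fibroblast marker genes all 10 were above background on all 6 arrays. In the same fit Col1a1 and Fn1 fell in the tetraploid line (-0.87 and -0.80, limma adjusted p 0.0402 and 0.0447), calls that ended in 5 of the 6 fits without 1 array (adjusted p 0.0660 to 0.138 and 0.0763 to 0.152). Of 10 pluripotency markers 5 were above background on no array, but 3 (Nanog, Sox2 and Zfp42) were above it on all 6. The limma test called 0 of these 10. Array values do not separate fewer expressing cells from less RNA per cell. Tests are two-sided limma tests, adjusted over all 19856 genes by the Benjamini-Hochberg method, and genes with an adjusted p below 0.05 were called.

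The question was whether transcripts of the writers and erasers of these marks distinguish the transformed tetraploid cells from the diploid ones. The maintenance pair Uhrf1 and Dnmt1 and the PRC2 enzyme gene Ezh2 rose in the tetraploid line, by 3.57-fold, 2.36-fold and 2.80-fold, and the de novo enzyme gene Dnmt3a fell, by 2.17-fold. Dnmt3b, Tet1, Tet2, Tet3, Ezh1 and Suz12 did not pass the test. Thus 3 of the 10 genes rose and 1 fell, where 6.15% of all genes rose and 7.80% fell (14.0% called in all). Without tetraploid array 2 or without each diploid array only 1 of the 10, Uhrf1, rose, where 1.31% to 2.98% of all genes did. Of the 10 genes 0 fell without tetraploid array 2, diploid array 2 or diploid array 3. Values of the lines did not overlap in 6 of the 10 genes, against 37.3% of all genes. The median difference of the 10 genes was 0.57, beside 0.07 over all genes, and 8 of the 10 were higher in the tetraploid line, as were 54.8% of all genes.

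**Figure D1:**
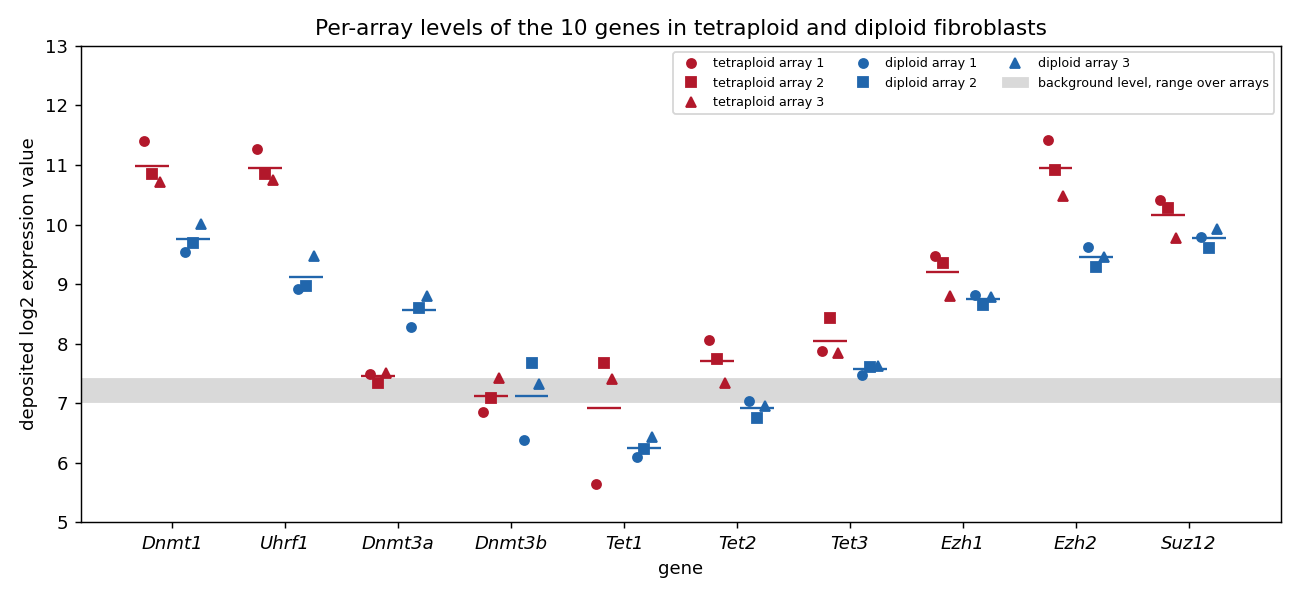
Deposited log2 value of each of the 10 genes on the 3 tetraploid arrays (red, left) and the 3 diploid arrays (blue, right), with symbols for array number and a bar at the mean of each line. Uhrf1, Dnmt1 and Ezh2 lay higher on all tetraploid arrays and Dnmt3a lower, while Dnmt3b, Tet1, Ezh1 and Suz12 overlapped; the grey band is the range of the background level, 7.01 to 7.41.

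**Figure D2:**
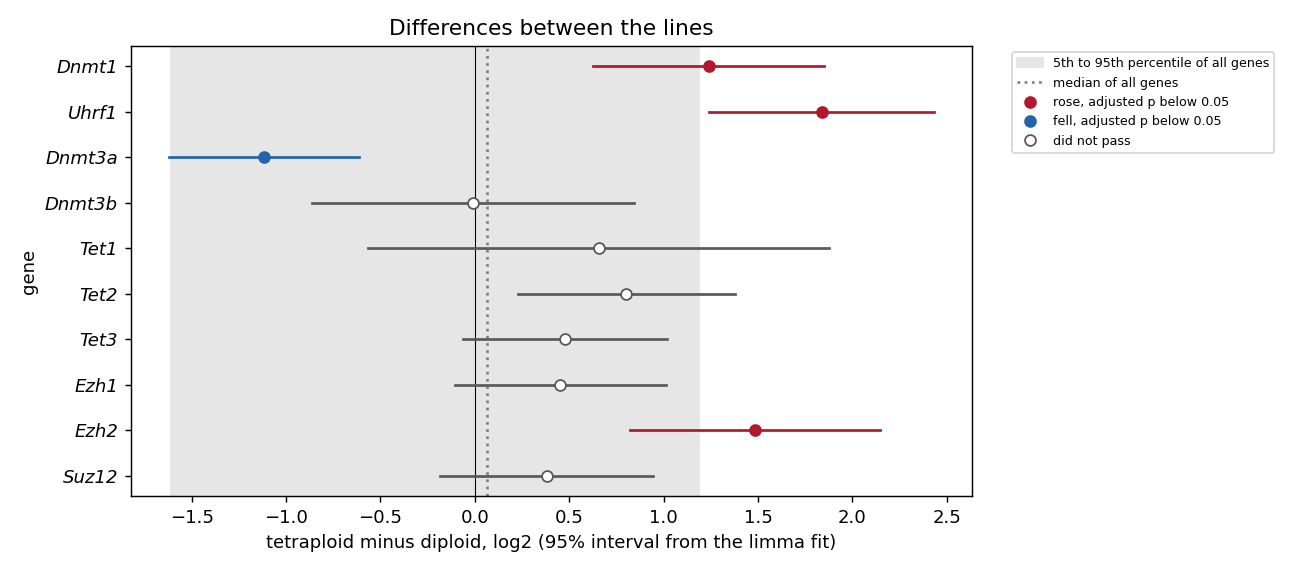
Tetraploid minus diploid difference of each gene on the log2 scale, with its 95% interval from the limma fit, over a grey band that spans the 5th to 95th percentile of all 19856 genes (-1.61 to 1.19). Uhrf1 (1.84), Ezh2 (1.48) and Dnmt1 (1.24) lay beyond the upper edge of the band, and Dnmt3a (-1.12) inside it.

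Start-site sequences are shown because 3 genes moved up together and 1 moved down. RefSeq windows (GRCm38.p6) from 250 bases before to 50 after an annotated start were found for all 10 genes, 15 windows in all, and for each gene the window with the most CpG dinucleotides was taken. Capitals mark matches to the E2F words TTTCCCGC, TTTCGCGC, TTTGCCGC and TTTGGCGC, searched on both strands.
Uhrf1 (rose; chr17:56304063-56304362, plus strand): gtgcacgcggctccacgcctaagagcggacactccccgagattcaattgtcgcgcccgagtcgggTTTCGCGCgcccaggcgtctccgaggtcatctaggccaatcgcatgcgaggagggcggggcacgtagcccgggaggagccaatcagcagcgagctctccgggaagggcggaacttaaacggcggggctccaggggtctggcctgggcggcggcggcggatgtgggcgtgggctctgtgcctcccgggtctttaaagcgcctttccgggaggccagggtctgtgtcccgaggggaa
Dnmt1 (rose; chr9:20952574-20952873, minus strand): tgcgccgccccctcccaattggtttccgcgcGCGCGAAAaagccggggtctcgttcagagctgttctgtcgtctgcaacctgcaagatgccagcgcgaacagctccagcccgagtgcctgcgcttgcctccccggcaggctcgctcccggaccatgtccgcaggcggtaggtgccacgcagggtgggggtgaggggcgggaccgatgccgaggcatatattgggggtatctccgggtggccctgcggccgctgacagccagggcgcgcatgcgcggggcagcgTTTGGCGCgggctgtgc
Ezh2 (rose; chr6:47594981-47595280, minus strand): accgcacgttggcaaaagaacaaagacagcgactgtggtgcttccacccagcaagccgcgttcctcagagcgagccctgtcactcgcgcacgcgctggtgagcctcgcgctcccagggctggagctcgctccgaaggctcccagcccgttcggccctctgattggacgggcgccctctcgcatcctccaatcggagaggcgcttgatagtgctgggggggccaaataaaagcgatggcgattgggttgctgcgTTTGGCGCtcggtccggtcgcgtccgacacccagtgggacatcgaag
Suz12 (did not pass; chr11:79992856-79993155, plus strand): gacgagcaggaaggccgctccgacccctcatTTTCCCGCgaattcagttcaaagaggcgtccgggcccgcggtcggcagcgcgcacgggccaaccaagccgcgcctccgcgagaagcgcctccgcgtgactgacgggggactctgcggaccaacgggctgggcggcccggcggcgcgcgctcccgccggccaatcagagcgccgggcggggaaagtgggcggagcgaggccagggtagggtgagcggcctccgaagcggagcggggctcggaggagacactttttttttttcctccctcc
Dnmt3a (fell; chr12:3806910-3807209, plus strand): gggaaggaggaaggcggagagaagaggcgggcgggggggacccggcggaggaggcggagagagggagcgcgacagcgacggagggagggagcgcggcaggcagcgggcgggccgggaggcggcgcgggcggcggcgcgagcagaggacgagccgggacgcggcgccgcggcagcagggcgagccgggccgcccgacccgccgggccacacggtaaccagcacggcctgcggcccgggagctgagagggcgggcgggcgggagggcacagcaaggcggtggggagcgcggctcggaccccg
In these windows Uhrf1 held 33 CpG dinucleotides, Dnmt1 33, Ezh2 31, Suz12 41 and Dnmt3a 47, beside a median of 7 over 32851 RefSeq windows. The E2F words occurred in 4 of the 10 windows, those of the 3 genes that rose and that of Suz12, which did not pass the test. Of all windows 2.26% held such a word, and of the 8701 windows with at least 20 CpG 5.15% did. The word began 185 bases before the start in Uhrf1, 219 bases before it in Suz12, and at base 4 of the transcript in Ezh2. Dnmt1 held 2 such words, 219 bases before the start and at base 34 of the transcript. The other 5 windows of Dnmt1, Uhrf1 and Dnmt3a held none. The CCAAT word, on either strand, was in 5 of the 10 windows and in 37.4% of all windows. A match describes letters only and is no evidence of binding.

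Uhrf1, the reader that brings DNMT1 to replicated DNA, showed the largest absolute difference of the 10. It stood at 11.27, 10.84 and 10.75 on tetraploid arrays 1 to 3, against 8.91, 8.97 and 9.48 on diploid arrays 1 to 3. Every tetraploid value lay more than a log2 unit above the highest diploid one. The means were 10.96 ± 0.28 and 9.12 ± 0.31 (SD, n = 3 each), a difference of 1.84 ± 0.25 (SE, limma adjusted p = 0.00676), and 5.77% of all genes had a larger absolute difference. The call held in all 6 fits that left out 1 array (adjusted p 0.0161 to 0.0375).

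Dnmt1, the maintenance methyltransferase gene, stood at 11.40, 10.85 and 10.71 on the tetraploid arrays, against 9.55, 9.69 and 10.02 on the diploid arrays. The groups did not overlap, with the nearest values on tetraploid array 3 and diploid array 3. The means were 10.99 ± 0.36 and 9.75 ± 0.24 (SD, n = 3 each), a difference of 1.24 ± 0.26 (SE, limma adjusted p = 0.0244). The call ended without tetraploid array 2 (limma adjusted p = 0.0551), and without each diploid array in turn (0.0922 for array 1, 0.0954 for array 2 and 0.0517 for array 3), while the difference stayed between 1.03 and 1.38. Such losses were common: these 4 fits kept 53.9%, 35.7%, 29.7% and 44.0% of all called genes.

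Of the de novo methyltransferase genes Dnmt3a fell. It stood at 7.50, 7.34 and 7.51 on the tetraploid arrays, of which 2 were above background, against 8.28, 8.60 and 8.81 on the diploid arrays. The tetraploid values lay within a narrow range (SD 0.10) and all below the lowest diploid one. The means were 7.45 ± 0.10 and 8.56 ± 0.26 (SD, n = 3 each), a difference of -1.12 ± 0.21 (SE, limma adjusted p = 0.0188). The call ended without tetraploid array 2 (limma adjusted p = 0.0540), diploid array 2 (0.0826) or diploid array 3 (0.0681), with differences from -1.26 to -0.99 over the 6 such fits.

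Diploid arrays 1 to 3 also differed in macrophage transcripts, and Dnmt3a was highest where these were highest. Of 10 macrophage markers 6 were above background on no array. Their summed level, as log2 of the sum, was 9.0, 9.7 and 8.8 on tetraploid arrays 1 to 3, against 9.2, 10.4 and 11.1 on diploid arrays 1 to 3. The defining marker Ptprc was below background on all 6 arrays, and 1 value of the list, that of Adgre1 on tetraploid array 1, was at 0. Of the 10 markers 1 fell: the lysozyme gene Lyz2 stood at 4.58, 3.63 and 0.44 on the tetraploid arrays, all at or below background, against 6.48, 9.32 and 9.98 on the diploid arrays (at least 2.94-fold lower, limma adjusted p = 0.0290). Lyz2 and Dnmt3a were both lowest on diploid array 1 and highest on diploid array 3, as were Dnmt1, Uhrf1, Tet1 and Tet3. This order is thus not particular to Dnmt3a. Counted separately, 39.2% of all genes were highest on diploid array 3 and 32.5% lowest on diploid array 1. The call of Lyz2 ended in 4 of the 6 fits without 1 array (adjusted p 0.0523 to 0.0970 without tetraploid array 2 or 3 or diploid array 2 or 3). On diploid array 1 the summed macrophage level was inside the tetraploid range. The mean log2 value of the 10 markers there (5.26) lay above those of the tetraploid arrays (4.63, 4.96 and 4.52), as did Lyz2. Dnmt3a stood at 8.28 on that array, above every tetraploid value. Of 7 endothelial markers 2, Kdr and Emcn, fell and 4 were above background on no array. Kdr stood at 5.39, 4.71 and 4.79 on the tetraploid arrays, all at or below background, against 8.31, 7.56 and 8.53 on the diploid arrays. It was at least 1.79-fold lower (limma adjusted p = 0.00270), and its call held in all 14 fits that tested it. The Emcn call ended with values raised to background (limma adjusted p = 0.337). Cldn5, above background on all 6 arrays, was higher in the tetraploid line (8.30 against 7.84, limma adjusted p = 0.179). The summed endothelial level was 9.32 to 9.42 in the tetraploid line and 9.94 to 10.10 in the diploid line. Of 7 epithelial markers 1 fell and 6 did not pass, with 4 higher and 3 lower in the tetraploid line. The one called was Krt18 (at least 1.37-fold lower, limma adjusted p = 0.0182), a call that ended without tetraploid array 2. The part of these cell type transcripts in the Dnmt3a difference was not tested.

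Dnmt3b, the second de novo enzyme gene, lay near background. It stood at 6.85, 7.08 and 7.41 on the tetraploid arrays, against 6.38, 7.67 and 7.33 on the diploid arrays. The groups overlapped, and 1 tetraploid and 2 diploid values were above background. The difference was -0.01 ± 0.36 (SE, limma adjusted p = 0.991) with a 95% interval of -0.86 to 0.85. A change of nearly a log2 unit either way was thus not excluded. The sign of the difference turned without tetraploid array 1 (0.12) or 2 (0.01) and without diploid array 2 (0.26) or 3 (0.09). Taken within each sample, Dnmt3b minus Dnmt3a was -0.64, -0.25 and -0.10 on the tetraploid arrays, against -1.90, -0.93 and -1.48 on the diploid arrays. The shift of 1.11 gave an exact permutation p of 0.1 (two-sided), the smallest that 3 samples against 3 allow.

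The TET genes all had higher means in the tetraploid line, and limma called 0 of the 3, with Tet2 at an unadjusted p of 0.0132. Tet2, a dioxygenase gene often mutated in blood cancers, stood at 8.07, 7.74 and 7.34 on the tetraploid arrays, against 7.04, 6.75 and 6.95 on the diploid arrays. The groups did not overlap, and all 3 diploid values were at or below background. The difference was 0.80 ± 0.24 (SE, limma adjusted p = 0.0737; at least 1.46-fold with values raised to the background level). Its adjusted p was 0.0463 without tetraploid array 3 and 0.0253 when only genes above background on all 3 arrays of a line were tested.

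Tet3, which oxidises the paternal genome in the zygote, stood at 7.87, 8.43 and 7.84 on the tetraploid arrays, against 7.47, 7.61 and 7.63 on the diploid arrays. The groups did not overlap, at a difference of 0.48 ± 0.23 (SE, limma adjusted p = 0.218) and a 95% interval of -0.06 to 1.02. A second Tet3 probe set gave 0.17 (adjusted p = 0.734). Tet1, best known from embryonic stem cells, stood at 5.65, 7.68 and 7.41 on the tetraploid arrays, against 6.10, 6.24 and 6.42 on the diploid arrays. Tetraploid array 1 lay below all diploid values, and 2 tetraploid values were above background. The difference was 0.66 ± 0.52 (SE, limma adjusted p = 0.455), and it was 1.29 without tetraploid array 1 (adjusted p = 0.0214). The other 2 Tet1 probe sets, both below background on all 6 arrays, also had their lowest tetraploid value on array 1 (5.24 and 4.92).

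Among the PRC2 genes, Ezh2 rose. It stood at 11.42, 10.92 and 10.48 on the tetraploid arrays, against 9.63, 9.29 and 9.46 on the diploid arrays. The lowest tetraploid value lay above the highest diploid one by less than a log2 unit. The means were 10.94 ± 0.47 and 9.46 ± 0.17 (SD, n = 3 each), a difference of 1.48 ± 0.28 (SE, limma adjusted p = 0.0178). The call ended without tetraploid array 2 (limma adjusted p = 0.0522), and without each diploid array in turn (0.0527 for array 1, 0.0769 for array 2 and 0.0626 for array 3), with differences from 1.24 to 1.71 over the 6 such fits.

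Ezh1, the paralogue of Ezh2 that also serves resting cells, stood at 9.47, 9.35 and 8.80 on the tetraploid arrays, against 8.82, 8.65 and 8.79 on the diploid arrays. Tetraploid array 3 fell inside the diploid range. The difference was 0.45 ± 0.24 (SE, limma adjusted p = 0.257) with a 95% interval of -0.11 to 1.01. Within each sample, Ezh2 minus Ezh1 was 1.96, 1.57 and 1.68 on the tetraploid arrays, against 0.80, 0.64 and 0.67 on the diploid arrays. These ratios did not overlap, and their shift of 1.03 gave an exact permutation p of 0.1 (two-sided, the smallest possible). Suz12, which holds PRC2 together, stood at 10.42, 10.27 and 9.78 on the tetraploid arrays, against 9.79, 9.61 and 9.93 on the diploid arrays. The groups overlapped, at a difference of 0.38 ± 0.24 (SE, limma adjusted p = 0.346) and a 95% interval of -0.18 to 0.95.

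Arrays of 1 line also differed in these genes. Of the 10 genes 6 had their highest tetraploid value on array 1, namely Uhrf1, Dnmt1, Ezh2, Ezh1, Suz12 and Tet2, and 7 had their lowest on array 3, while 2 (Dnmt3b and Tet1) were lowest on array 1. Over all genes 37.4% were highest on tetraploid array 1 and 34.4% lowest on tetraploid array 3. In the diploid line 6 of the 10 were highest on array 3 and 6 lowest on array 1, as were 39.2% and 32.5% of all genes. The median SD of the 10 genes was 0.35 in the tetraploid line and 0.17 in the diploid line, beside 0.34 and 0.24 over all genes.

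Cell division transcripts moved with Uhrf1, Dnmt1 and Ezh2 between the lines, and in part between arrays of 1 line. Of 18 measured proliferation markers 14 rose, 0 fell and 4 did not pass the limma test (16 higher and 0 lower at an unadjusted p below 0.05). The replication helicase genes Mcm5 and Mcm7 were 3.46-fold and 2.83-fold higher, and the thymidine kinase gene Tk1 2.96-fold. The count varied with the arrays used: without diploid array 1 or without diploid array 2 only Mcm5 and Mcm7 were called, 2 of the 18. In these fits 1.79% and 1.31% of all genes rose. Without tetraploid array 2 it was 6 of the 18, where 2.98% of all genes rose. The other 3 such fits called 10 to 14, where 2.98% to 5.25% of all genes rose. The call of Tk1 was among those that ended without diploid array 1 or 2 (adjusted p 0.0567 to 0.0640). Averaged over the list, their level was 10.96, 10.71 and 10.46 on tetraploid arrays 1 to 3, against 9.36, 9.28 and 9.88 on diploid arrays 1 to 3, a difference of 1.20. Uhrf1, Dnmt1 and Ezh2 thus followed the order of the list over the tetraploid arrays, and Uhrf1 and Dnmt1 shared its high value on diploid array 3. Neither trait was particular to them. Ezh1, Suz12 and Tet2, which did not pass, had the same tetraploid order. Dnmt3a, which fell, and Suz12, Tet1 and Tet3 were also highest on diploid array 3.

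**Figure D3:**
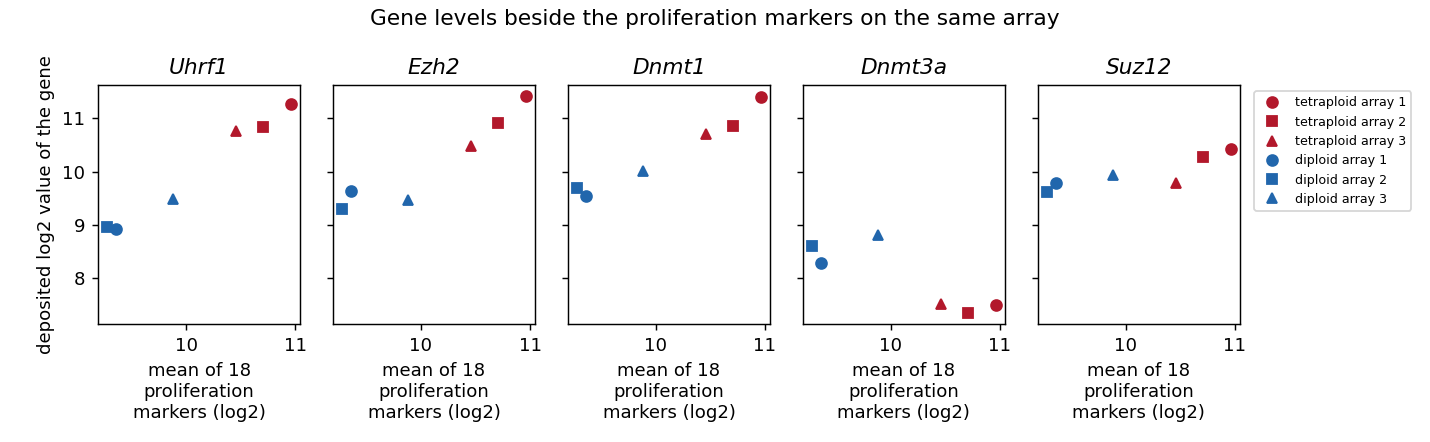
Log2 value of Uhrf1, Ezh2, Dnmt1, Dnmt3a and Suz12 on each array against the mean of 18 proliferation markers on the same array (tetraploid red, diploid blue, symbols for array number). The lines are apart on the horizontal axis (10.46 to 10.96 against 9.28 to 9.88); Uhrf1, Ezh2 and Dnmt1 are higher and Dnmt3a lower at the tetraploid end.

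The 10 genes were also set against the mean of the proliferation markers on the same array. Subtracting that mean lowers every gene's difference by 1.20, so a gene with equal levels in both lines comes out lower on this scale by construction. Dnmt1 minus the marker mean was 0.44, 0.14 and 0.25 on the tetraploid arrays, against 0.18, 0.41 and 0.13 on the diploid arrays, a difference of 0.03 (exact permutation p = 0.7, two-sided). Ezh2 minus the marker mean was 0.46, 0.21 and 0.02 on the tetraploid arrays, against 0.26, 0.01 and -0.43 on the diploid arrays, a difference of 0.28 (exact permutation p = 0.4). For both genes the lines overlapped on this scale. Uhrf1 minus the marker mean was 0.31, 0.14 and 0.29 on the tetraploid arrays, against -0.45, -0.31 and -0.41 on the diploid arrays, without overlap and with a difference of 0.63. Without overlap and lower were Dnmt3a (-2.32), Dnmt3b (-1.21), Suz12 (-0.82), Ezh1 (-0.75) and Tet3 (-0.73), of which Dnmt3a alone had been called before the subtraction. For Uhrf1 and these 5 genes the exact permutation p was 0.1, the smallest possible, while Tet1 and Tet2 overlapped.

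Other subunits of PRC2 were mostly not called. Of 10 measured PRC2 partners 1 rose and 1 fell, while 8 did not pass (20% called, against 14.0% of all genes, list median 0.37). Phf1, a subunit that binds methylated histone H3, rose, at 9.23 ± 0.23 against 8.06 ± 0.21 (SD, n = 3 each; limma adjusted p = 0.0176). Eed, the core subunit that binds the Polycomb mark itself, fell, at 8.91, 8.73 and 8.94 on the tetraploid arrays, against 9.68, 9.66 and 9.71 on the diploid arrays (limma adjusted p = 0.0293). Eed thus went the other way from Ezh2, its partner in the complex. A second Eed probe set was below background on all 6 arrays (difference 0.08), and the mean of both ended the call (adjusted p = 0.366). The calls of Phf1 and Eed ended without any 1 diploid array, and that of Eed also without tetraploid array 2 (adjusted p 0.0511 to 0.0724 for Phf1 and 0.0698 to 0.114 for Eed).

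PRC1, the Polycomb complex that ubiquitinates histone H2A, showed calls both ways. Of 20 measured subunits 2 rose and 2 fell, while 16 did not pass (20% called, list median 0.36). Over all genes 6.15% rose and 7.80% fell (14.0% called). Pcgf5, a subunit of a variant PRC1, stood at 9.41, 10.46 and 10.06 on the tetraploid arrays, against 8.29, 8.00 and 8.21 on the diploid arrays, and was 3.50-fold higher (limma adjusted p = 0.0116). Its paralogue Pcgf3 stood at 10.19, 9.63 and 9.58, against 11.09, 10.86 and 10.93, and was 2.24-fold lower (limma adjusted p = 0.0222). The Polyhomeotic paralogues differed likewise: Phc1 was 2.32-fold higher (limma adjusted p = 0.0207) and Phc2 2.21-fold lower (limma adjusted p = 0.0141). The catalytic subunit gene Rnf2 (-0.77, adjusted p = 0.0604) and Bmi1 (0.56, adjusted p = 0.196) did not pass. The calls of Phc1, Pcgf3 and Phc2 ended when each diploid array was left out, and that of Pcgf5 without diploid array 2 (limma adjusted p = 0.0551). Those of Phc1 and Pcgf3 also ended without tetraploid array 2, and that of Pcgf3 without tetraploid array 3. Over the fits in which they ended, the adjusted p was 0.0522 to 0.0813 for Phc1, 0.0531 to 0.0858 for Pcgf3 and 0.0563 to 0.0611 for Phc2.

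Of 11 enzymes that oppose Polycomb, 1 rose and 1 fell, while 9 did not pass (18.2% called, against 14.0% of all genes, list median 0.26). Uty, the Y-linked relative of the histone demethylase gene Kdm6a, stood at 3.99, 3.09 and 3.17 on the tetraploid arrays, all at or below background, against 8.55, 8.39 and 8.55 on the diploid arrays (at least 2.31-fold lower, limma adjusted p = 3.33e-04). Sex is not given for either line, so a difference in sex cannot be told apart here from lower expression of Uty. Kdm6a itself stood at 8.40 ± 0.15 and 7.89 ± 0.27 (SD, n = 3 each; limma adjusted p = 0.172). Asxl3, a cofactor of the deubiquitinase BAP1, was at least 1.59-fold higher (limma adjusted p = 0.0206). Its call ended once values were raised to the background level (adjusted p = 0.0655), without tetraploid array 2 and without diploid array 1 or 2 (adjusted p 0.0564 to 0.0797).

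Of 21 partners, readers and repair enzymes of DNA methylation 2 rose and 1 fell, while 18 did not pass (14.3% called, as in 14.0% of all genes, list median 0.07). Hells, a chromatin remodeller needed for DNA methylation at repeats, stood at 11.13, 11.20 and 10.70 on the tetraploid arrays, against 9.07, 8.91 and 9.52 on the diploid arrays. It was 3.59-fold higher, close in size to Uhrf1 (limma adjusted p = 0.00662). Mbd4, a glycosylase gene that acts on deaminated methylcytosine, was at least 2.34-fold higher (limma adjusted p = 0.0108), and diploid values were all at or below background. Zbtb38, a reader of methylated DNA, was 2.24-fold lower (limma adjusted p = 0.0162), and its call ended without diploid array 1 or 2 (adjusted p 0.0668 to 0.0775). Dnmt3l, the germ cell cofactor of the de novo enzymes, lay below background on all 6 arrays.

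**Figure D4:**
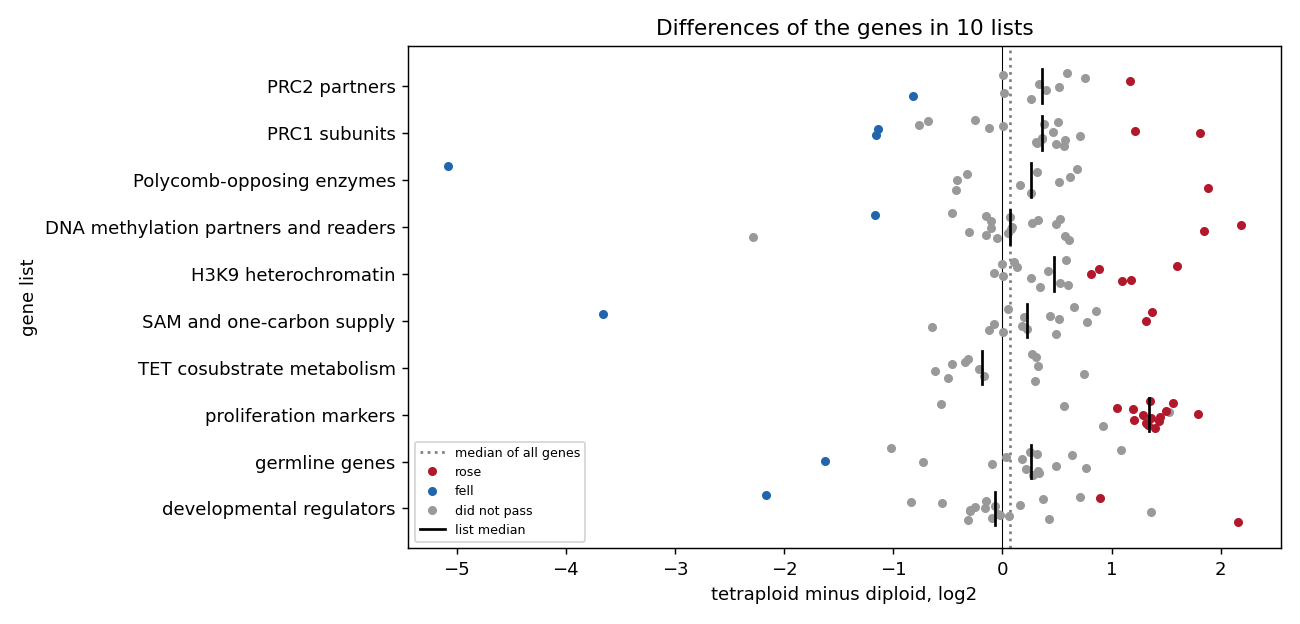
Tetraploid minus diploid difference (log2) of every measured gene in 10 lists, with calls in red (rose) and blue (fell), genes that did not pass in grey, and a black bar at each list's median. The proliferation markers sit apart at a median of 1.34, while the PRC2 partners (0.37), PRC1 subunits (0.36) and DNA methylation partners (0.07) lie nearer the dotted median of all genes (0.07).

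Most writers and readers of histone H3 lysine methylation in heterochromatin did not pass the test. Of 16 measured, 5 rose, 0 fell and 11 did not pass the limma test (31.2% called, all upward, where 6.15% of all genes rose; list median 0.47; 7 higher and 0 lower at an unadjusted p below 0.05). Without diploid array 2 limma called 0 of the 16, in a fit where only 1.31% of all genes rose. Suv39h2, a methyltransferase gene, was 3.04-fold higher, and Cbx5, which encodes heterochromatin protein HP1 alpha, stood at 11.34 ± 0.04 against 10.16 ± 0.10 (SD, n = 3 each; limma adjusted p = 0.00980). Cbx3 was 2.13-fold higher, but its 7 probe sets include 3 with identical values, so its signal may be shared with near-identical copies. The methyltransferase genes Setdb1 (0.88) and Ehmt2 (0.81) also rose and are named after their values were seen. The call of Cbx5 ended without diploid array 2 (adjusted p = 0.0555). That of Suv39h2 ended without diploid array 1 or 2 or tetraploid array 1 or 2 (adjusted p 0.0533 to 0.107), that of Cbx3 without tetraploid array 2 or each diploid array (adjusted p 0.0534 to 0.0929). That of Setdb1 ended without any 1 array but tetraploid array 3 (adjusted p 0.0727 to 0.151), and that of Ehmt2 without tetraploid array 2 or each diploid array (adjusted p 0.0613 to 0.114).

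Genes that supply the enzymes with methyl groups were called about as often as other genes. Of 17 genes that supply or use the methyl donor S-adenosylmethionine 2 rose and 1 fell, while 14 did not pass (17.6% called, against 14.0% of all genes, list median 0.22). Mthfd1l, a mitochondrial folate enzyme gene, was 2.50-fold higher (limma adjusted p = 0.0108) and Shmt1 2.58-fold (limma adjusted p = 0.0486). Nnmt, whose product uses up methyl groups on nicotinamide, stood at 4.24, 3.07 and 5.29 on the tetraploid arrays, all at or below background, against 7.78, 8.13 and 7.68 on the diploid arrays (at least 1.48-fold lower, limma adjusted p = 0.00792). The call of Mthfd1l ended when diploid array 2 was left out (adjusted p = 0.0574), and that of Shmt1 without tetraploid array 1 or 2 or each diploid array (adjusted p 0.0847 to 0.155). Of 12 genes of the metabolism that makes or competes with the TET cosubstrate, limma called 0, with 1 higher and 1 lower at an unadjusted p below 0.05 (list median -0.19).

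Transcripts of genes under these marks were given for 2 lists. Of 16 germline genes known to be kept silent by promoter methylation 0 rose, 1 fell and 15 did not pass the limma test (list median 0.27), and 11 were above background on no array. At an unadjusted p below 0.05, 2 were higher and 2 lower. The called one, Slc25a31, named after its values were seen, was below background on all 6 arrays, and its call ended once values were raised to background (adjusted p = 0.463). Of 21 developmental regulators bound by Polycomb in embryonic stem cells 2 rose and 1 fell, while 18 did not pass. This was 14.3% called, against 14.0% of all genes (list median -0.07). Cdkn2a, the classic Polycomb target that encodes tumour suppressors, stood at 12.56, 12.37 and 12.43 on the tetraploid arrays, against 10.58, 10.26 and 10.05 on the diploid arrays (limma adjusted p = 0.00241). Cdkn2a was thus higher in the same samples in which Ezh2 was higher. The transcription factor gene Tbx15 was 1.86-fold higher (limma adjusted p = 0.0373), a call that ended in all 6 fits without 1 array (adjusted p 0.0502 to 0.134). Wt1, named after its values were seen, was the one that fell. It lay below background on all 6 arrays and lost its call in the same way (adjusted p = 0.463).

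The genes most like Uhrf1 over the 6 samples, among 8627 genes above background on all arrays, were Rpsa (r = 0.9995), Ckap5 (r = 0.998) and Atad2 (r = 0.998). This describes 2 separate groups of 3 samples. Rpsa, a ribosomal protein gene with many copies, differed by 0.38 (limma adjusted p = 0.211). The microtubule gene Ckap5 differed by 0.82 (limma adjusted p = 0.0353), and the chromatin cofactor gene Atad2 by 1.36 (limma adjusted p = 0.0127).

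**Figure D5:**
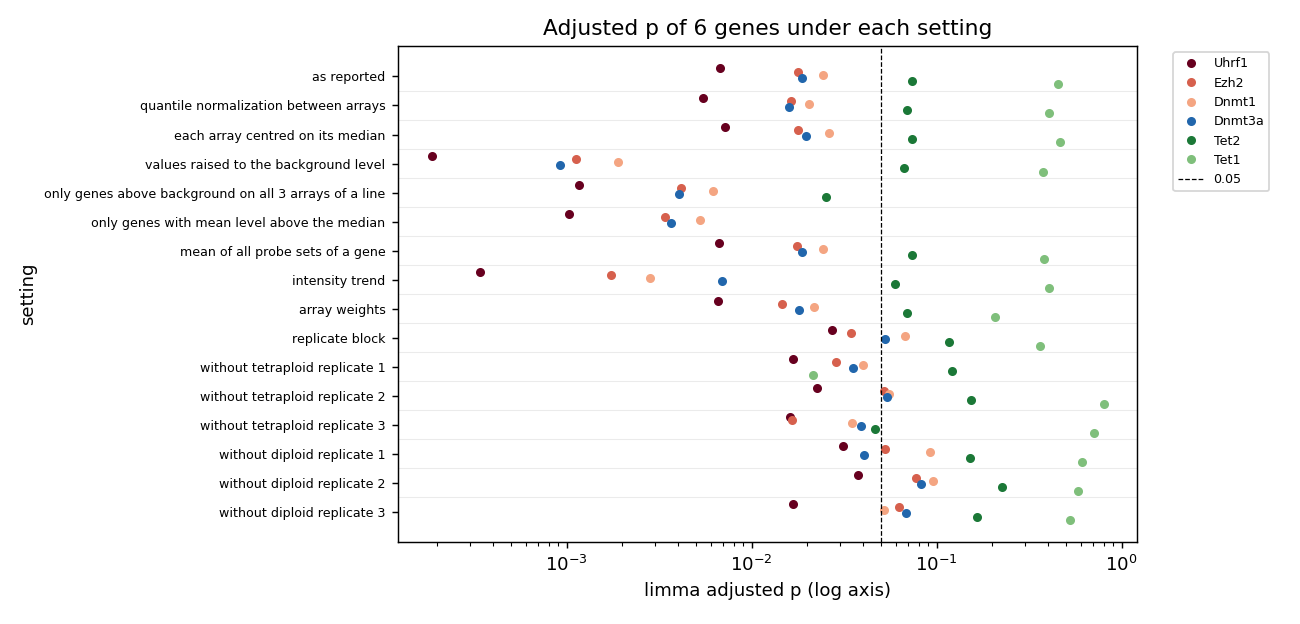
Adjusted p of Uhrf1, Ezh2, Dnmt1, Dnmt3a, Tet2 and Tet1 (log axis) under each setting, with a dashed line at 0.05. Uhrf1 stayed left of the line in all fits shown, while Ezh2, Dnmt1 and Dnmt3a crossed it in several fits with 1 array left out, where fewer genes were called overall.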

How the data were processed

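RNA of 6 samples was labelled and measured on Affymetrix mouse arrays that cover whole transcripts, per the labels' protocols. Values were deposited as log2 signals and made with Affymetrix Expression Console, per the submitters' processing notes; its version, algorithm and normalization are not given in the sources used here. Array medians differed by at most 0.0435, so values were used as deposited. Of 28944 probe sets 21789 carried 1 gene symbol, 1621 several and 5534 none; 21698 of the first had an Entrez ID in the RefSeq table (GRCm38.p6) and gave 19856 genes.

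Differences were fitted by lmFit and eBayes of limma 3.58.1 (R 4.3.3), tested first on simulated arrays. The 10 genes, the 10 gene lists and the 5 marker lists (206 of 223 entries measured) were chosen with earlier results of these data known. Besides the 10 genes, up to 3 called rises and 3 called falls per list are named, among genes above background on all 3 arrays of a line. For genes at or below background in a whole line, fold changes were taken after raising values to the background and are lower bounds. The lines share replicate numbers without a stated pairing, and deviations of same-numbered arrays correlated across genes at 0.10, 0.03 and -0.05. Arrays give no counts or depth, so their number limits the precision. In all, 15 alternatives were tried.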

Additional observations from a re-analysis of the deposited data

How the results depend on the processing

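Over the 15 alternative fits Uhrf1 kept its call in 15, Ezh2 and Dnmt3a in 11 and Dnmt1 in 10, with no change of sign in these 4 genes. With 1 array left out, 1 to 4 of the 10 genes were called as risen and 0 to 1 as fallen. Over all genes, these fits called 261 to 1043 rises and 576 to 1557 falls, and among the 62 other methylation and Polycomb genes 2 to 6 rises and 1 to 6 falls, with the lowest counts of calls without diploid array 2. With the replicate block 607 rises were called over all genes, 0 of the 10 genes fell (Dnmt3a, limma adjusted p = 0.0523), Dnmt1 lost its call (0.0672), and 3 of the 62 fell. Samples share only a number, and differently numbered arrays of the lines correlated as strongly (-0.14 to 0.13). Values raised to the background level gave 1960 rises over all genes, and 11 rises and 8 falls among the 62. Testing only genes above background on all 3 arrays of a line also gave 11 and 8, of which 10 rises and 8 falls were shared by both settings, and an intensity trend 1838 rises. Dnmt3b changed sign with quantile normalization (0.0022) and in 4 of the 6 fits without 1 array, over which it ranged from -0.38 to 0.26. Slc25a31 and Wt1, below background on all arrays, turned to 0.12 with values raised to it, when only background levels remain. The cause of these changes was not tested, except that fits without 1 array hold fewer samples.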
